A study of Rattus norvegicus with 2 samples.

Results

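The SLC25 family is here the set of carrier genes whose symbol begins with Slc25a on the array's annotation. The uncoupling protein genes Ucp1 and Ucp2, which belong to the same protein family, were added. By that rule 42 genes were found among 14217 with a probe set of their own. The rule uses symbols and no measured value, but it was chosen with earlier results of these data known. Of the 42, 34 were measured, meaning that at least 1 array reached a signal of 19.8, the median of all non-control signals. The other 8 lay below that floor on both arrays.

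Gene expression was measured in adductor muscle, from the inner thigh, of male Lewis rats, an inbred strain. The stimulated group was muscle of the left hindlimb taken 24 hours after a 0.14 mm needle of stainless steel had been pricked 100 times into a 10 mm by 10 mm area, and the control group was muscle of the untreated right hindlimb. No genetic change or other agent is named for either group. Each group was 1 Affymetrix array of total RNA, the number of rats behind it is not stated, and no difference below was tested or has a replicate check.

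SLC25 carriers are proteins of the mitochondrial inner membrane, with a few members in other membranes, that move metabolites across it. They exchange ADP for ATP, import phosphate, pass reducing power and amino acids between cytosol and matrix, bring in fatty acids as acylcarnitines, supply cofactors and iron, or let protons leak back. Muscle has its own forms of several carriers, such as the ADP/ATP exchanger Slc25a4.

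The tissue label was borne out by the muscle genes, all 8 of which were measured, such as skeletal actin (Acta1) with a signal of 12095 after stimulation and 16712 in the control. The samples differed in the markers of other cells. All 14 macrophage markers were higher in the stimulated sample, with a summed signal of 12088 against 3219. Spp1, Gpnmb and Lgals3 carried most of that difference, and without these 3 the other 11 summed to 4048 against 2419. Slow-fibre markers summed to 2387 against 1206 and fast-fibre markers to 83023 against 109687. Adipocyte markers summed to 1460 against 3182, with Cfd alone at 395 against 1683, and 6 of the 7 measured were lower. Lep, Dio2 and Elovl3 were below the floor on both arrays. Endothelial markers summed to 667 against 1232. In whole tissue, fewer cells of a type and less RNA per cell cannot be told apart, and the part of these shifts in the carrier values was not tested. The stimulated array had lower signals for all 18 hybridisation spike-ins (median log2 ratio -0.38), and scaling to them moved the median of all genes from 0.019 to 0.39. Directions are therefore relative to the deposited scale, on which the median gene lay near 0, and are not absolute.

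With signals raised to the floor, no measured SLC25 carrier reached a 2-fold difference between the limbs. Of the 34 measured members, 0 reached a 2-fold higher signal in the stimulated limb and 0 a 2-fold lower one. Over all 9956 measured genes, 1.43% passed 2-fold upward and 1.43% downward. At 1.5-fold, 2 members were higher, namely Slc25a24 and Slc25a1, and 2 were lower, namely Slc25a22 and Slc25a41, against a background of 6.59% higher and 6.94% lower. In all, 30 of 34 lay within 1.5-fold. The value for Slc25a22 is a bound, since its stimulated signal was below the floor, and its signals of 15.1 and 33.0 as deposited are 2.18-fold apart, so a 2-fold difference is not excluded for it or for the 8 carriers without a ratio. These shares are near those of all genes, as far as counts this small allow. The median log2 ratio of the members was -0.06, with 13 above 0 and 21 below, beside 0.019 for all genes, of which 47.7% lay below 0. With scaling to the spike-ins, 27 members lay above 0 and 7 below, and Slc25a1 and Slc25a24 passed 2-fold (log2 ratios of 1.07 and 1.14), when 5.36% of all genes did so upward and 0.441% downward.

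**Figure D1:**
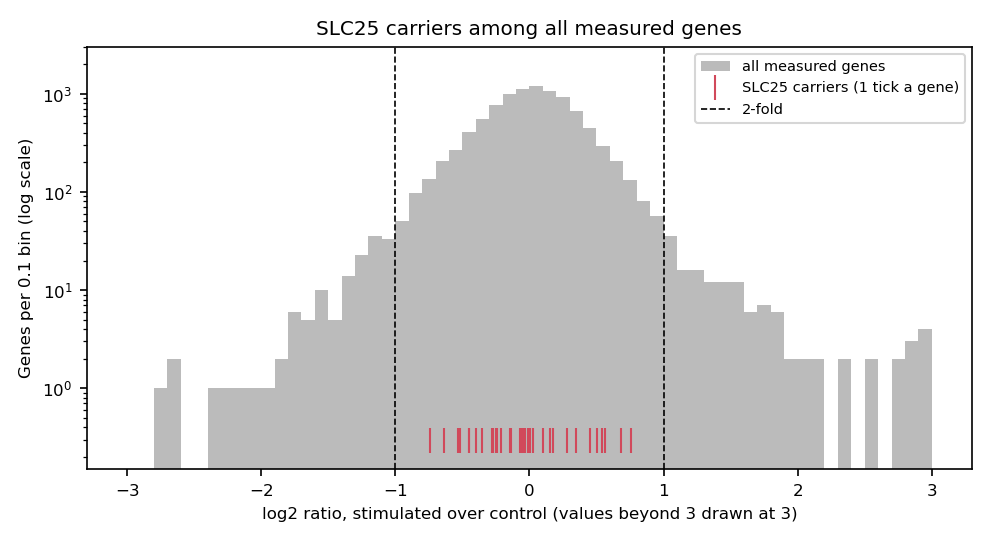
Histogram of the log2 ratio of stimulated over control for all 9956 measured genes (x axis; y axis, genes per bin of width 0.1 on a log scale), with a red tick for each of the 34 measured SLC25 carriers and dashed lines at 2-fold. The ticks run from -0.74 to 0.76 and none reaches a dashed line, with Slc25a22 drawn at its bound.

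An error can be had only from genes that several probe sets measured. In 2174 such genes, the log2 ratios of 2 probe sets differed with an SD of 0.44, which is 0.31 for a single probe set. That SD was 0.35 below a mean signal of 100, where 18 of the 34 members lay, and 0.18 at 1000 and above, where 3 lay. Differences among limbs or rats are not part of it. A MAS5 signal is on an arbitrary scale that differs from probe set to probe set, so signals are compared between limbs and not between genes. For the same reason, the sums over marker lists are weighted toward their brighter probe sets.

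**Figure D2:**
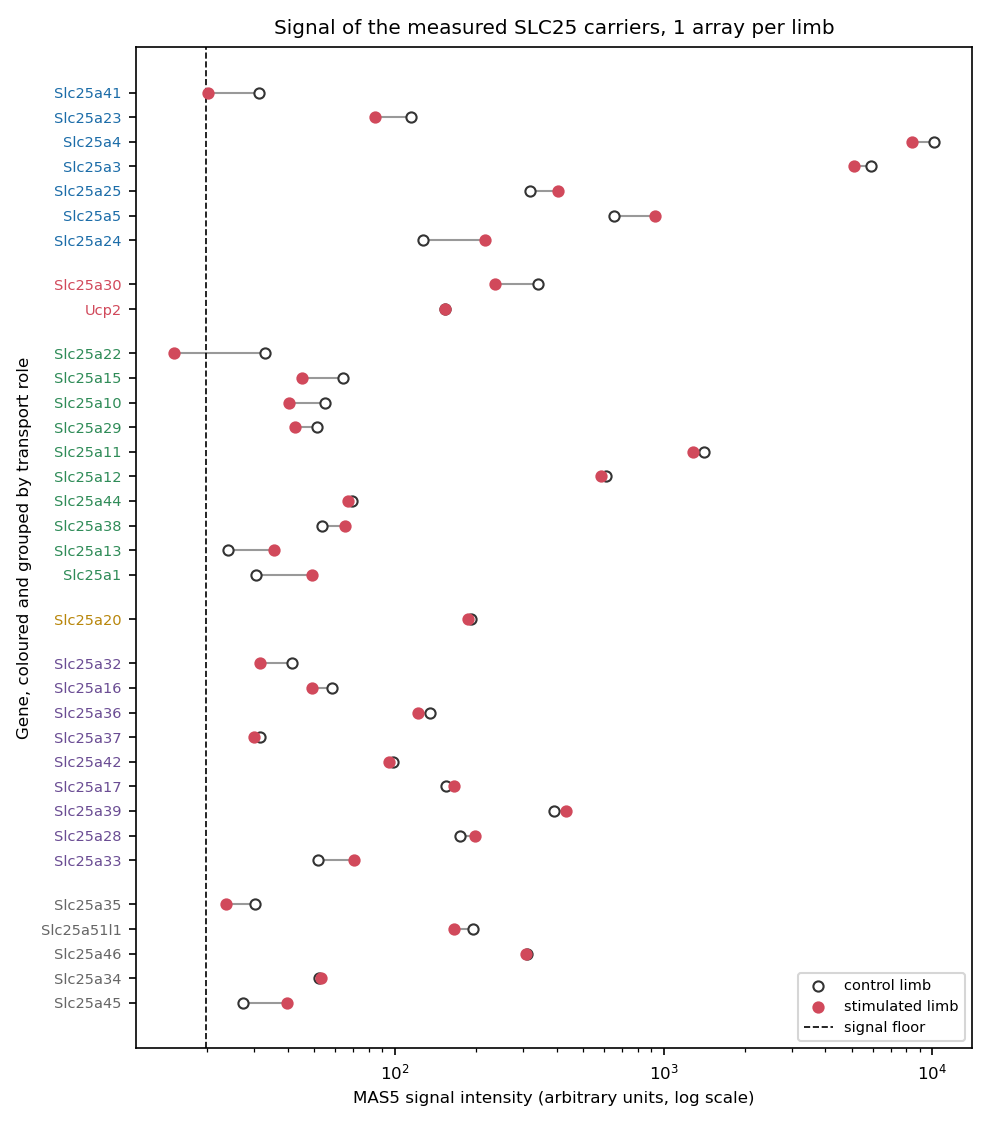
MAS5 signal of each of the 34 measured carriers (x axis, arbitrary units, log scale) in the control limb (open circles) and the stimulated limb (red circles), 1 array each, grouped by transport role with a dashed line at the floor of 19.8. The paired points lie close together for most genes, and Slc25a22 is the only one with a point below the floor, at 15.1 in the stimulated limb.

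Carriers of adenine nucleotides and phosphate went both ways on the deposited scale. The form of dividing cells of the ADP/ATP exchanger was higher there. The muscle form was slightly lower, by less than the SD of a probe set over all signals (0.31) but more than that of bright ones (0.18). Slc25a4 (ANT1), which brings ADP into the matrix and ATP out in heart and skeletal muscle, had a signal of 8368 after stimulation and 10135 in the control, 1.21-fold lower (log2 ratio -0.28). Slc25a5 (ANT2), its counterpart in dividing cells, had 927 against 655, 1.42-fold higher (log2 ratio 0.50). Their log2 ratios were thus 0.78 apart, or 1.77 times the SD between probe sets of 1 gene. With quantile normalization the log2 ratio of Slc25a4 was -0.01 and that of Slc25a5 was 0.46, so the smaller of these differences depended on the scaling. Under spike-in scaling both lay above 0, at 0.11 and 0.89. The fast-fibre markers had a median log2 ratio of -0.42 in the same comparison, with 9 of 10 below 0 and Myh2 the other way (2010 against 1008). Values of these markers with quantile normalization are not given here. Acta1 and Ckm, outside that list, had log2 ratios of -0.47 and -0.44. The 8 skeletal muscle markers had a median of -0.10, with 5 below 0 and 3 above. Slc25a31 (ANT4), the germ cell form, was below the floor at 6.50 and 2.28. Slc25a3, which supplies phosphate to ATP synthase, had 5127 against 5928, 1.16-fold lower. Of the partners of these carriers, the ATP synthase subunit gene Atp5f1b was 1.22-fold lower (5310 against 6480) and Ckmt2, the mitochondrial creatine kinase, had 5345 against 5377.

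The calcium-regulated ATP-Mg/phosphate carriers, which set the adenine nucleotide pool of the matrix, did not move as 1 group. Slc25a24 (SCaMC-1) had a signal of 216 after stimulation and 128 in the control, 1.69-fold higher, the largest ratio among the 34 members. Slc25a25 (SCaMC-2) had 406 against 318, 1.27-fold higher. Slc25a23 (SCaMC-3) went the other way with 84.4 against 115, 1.36-fold lower, and its second measured probe set also gave a lower value, 17.2 against 30.8 and so at least 1.56-fold. Slc25a41 (SCaMC-3-like) had 20.1 against 31.2, 1.55-fold lower, with the stimulated value just above the floor. Slc25a24 and Slc25a23 were 1.21 apart on the log2 scale, 2.74 times the SD between probe sets of 1 gene, and Slc25a24 and Slc25a41 were 1.39 apart. Slc25a23 and Slc25a41 are direct neighbours on chromosome 9 of the rat RefSeq annotation, on the same strand, and both were lower. In total 11 pairs of close relatives were compared, chosen after the values were seen. Of these, 7 differed by over 1 SD and 3 by over 2 SD, all 3 of them among the ATP-Mg/phosphate carriers. The 3 pairs overlap, being Slc25a24 with Slc25a23, Slc25a24 with Slc25a41, and Slc25a25 with Slc25a41. The SD is that between probe sets of 1 gene. The share of other gene pairs past it was not taken, so these counts have no background.

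The promoters of 2 of these pairs, each opposed on the deposited scale, show how far their upstream sequence differs. The windows are RefSeq's on GRCr8, the 250 bases before the annotated start, with capitals marking the searched words described after them. Slc25a4 lies at chr16:52805271-52805520 (plus strand), Slc25a5 at chrX:120897366-120897615 (plus), Slc25a23 at chr9:1985366-1985615 (minus) and Slc25a24 at chr2:199449175-199449424 (plus).
Slc25a4: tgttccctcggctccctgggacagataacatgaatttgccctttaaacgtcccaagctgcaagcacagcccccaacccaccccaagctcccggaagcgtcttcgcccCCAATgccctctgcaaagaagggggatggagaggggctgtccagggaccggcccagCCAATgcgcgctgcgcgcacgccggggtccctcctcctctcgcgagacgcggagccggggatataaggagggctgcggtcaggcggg
Slc25a5: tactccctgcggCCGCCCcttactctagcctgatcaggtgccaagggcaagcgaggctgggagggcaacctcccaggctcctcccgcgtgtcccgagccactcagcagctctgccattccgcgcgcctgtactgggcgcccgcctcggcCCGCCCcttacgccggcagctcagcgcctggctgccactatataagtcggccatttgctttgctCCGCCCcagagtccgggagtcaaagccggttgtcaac
Slc25a23: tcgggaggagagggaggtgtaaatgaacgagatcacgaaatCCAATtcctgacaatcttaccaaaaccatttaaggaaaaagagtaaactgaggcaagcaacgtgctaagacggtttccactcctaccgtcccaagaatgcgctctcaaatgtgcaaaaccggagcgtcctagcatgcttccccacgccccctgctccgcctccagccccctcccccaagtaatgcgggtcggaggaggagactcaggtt
Slc25a24: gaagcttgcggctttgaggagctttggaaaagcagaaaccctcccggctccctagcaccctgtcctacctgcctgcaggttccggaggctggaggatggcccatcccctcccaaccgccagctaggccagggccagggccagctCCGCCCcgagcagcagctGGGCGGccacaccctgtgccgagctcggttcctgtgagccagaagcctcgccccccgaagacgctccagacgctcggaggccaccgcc
In these stretches the Slc25a4 promoter held the CCAAT word at 2 places and Slc25a23 at 1, while Slc25a5 held the Sp1 word GGGCGG at 3 places and Slc25a24 at 2, read on either strand. The Sp1 word also occurred in Slc25a4 across the start and in Slc25a23 just after it, outside the printed bases. These pairs were chosen after their values were seen. In the wider family both words occurred in carriers of either direction. CCAAT was in the higher Slc25a1 and the lower Slc25a10, and the Sp1 word in the higher Slc25a1 and the lower Slc25a22.

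Across the family, 36 of 42 members had a promoter window of 300 bases, 250 before and 50 after the start, and 7 words were searched on both strands, none contained in another. The Sp1 word GGGCGG was in 25 of 36 (69.4%) and in 34.7% of 27457 promoters of all genes, and CCAAT in 18 of 36 (50%) and 37.7%. The member windows also held more G and C, with a median of 60.5% against 52.3%. The Sp1 word is made of G and C alone, and no comparison was made with promoters of like G and C. The 27457 promoters were those of all RefSeq genes with such a window and were not limited to genes on the array. Whether the Sp1 share is particular to the carriers was therefore not tested. TATAAA was in Slc25a38 and Ucp1 alone (5.56% against 14.3%). The CRE word TGACGTCA was in Slc25a25 and Slc25a33 (5.56% against 1.89%). The ETS word CCGGAAGT was in Slc25a17 and Slc25a20 (5.56% against 4.02%), the NRF1 word GCATGCGC in Slc25a13 and Slc25a31 (5.56% against 2.66%), and the ERR word TCAAGGTCA in 0 members (0.397% of all). A match is a match of letters and says nothing about binding.

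**Figure D3:**
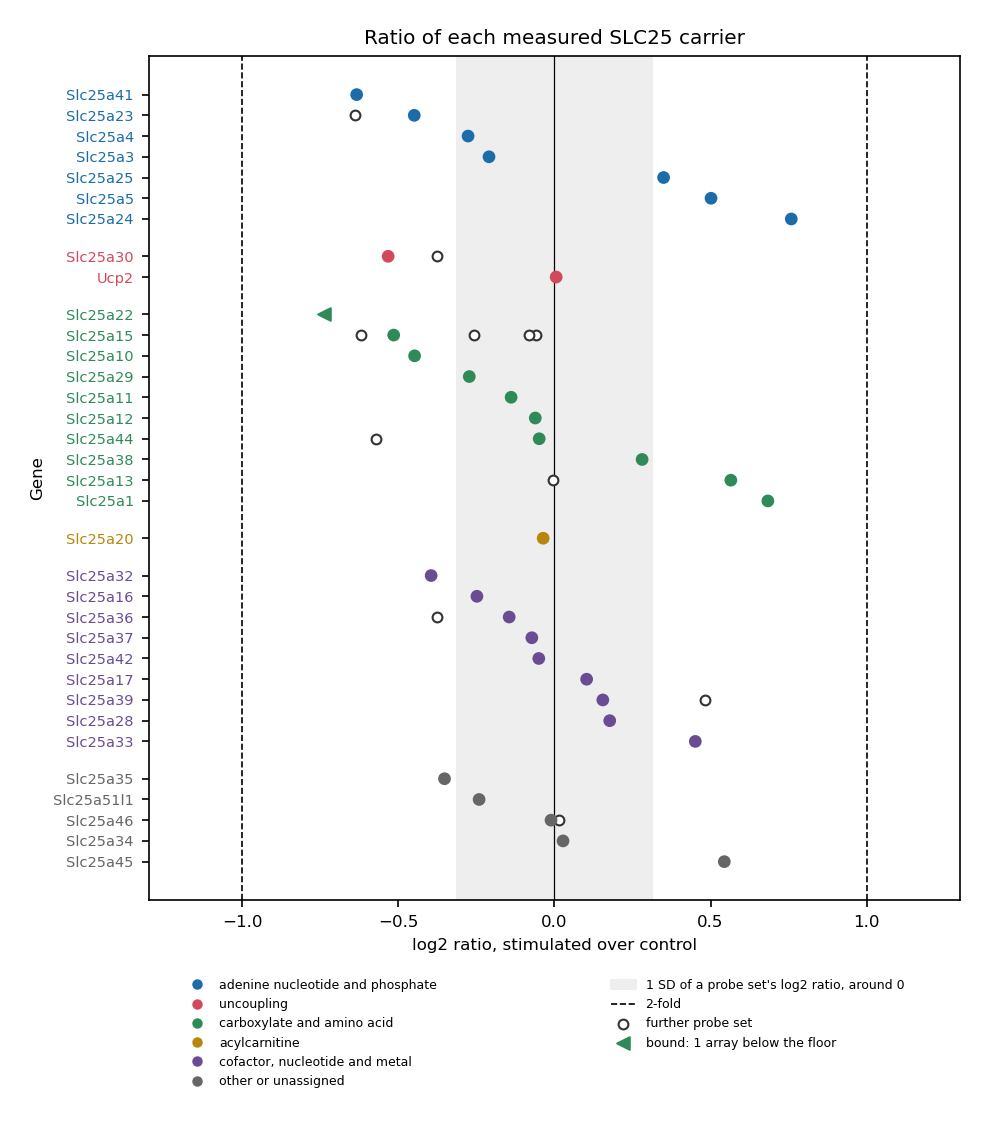
Log2 ratio of stimulated over control (x axis) for each measured SLC25 carrier: filled symbols are the probe set that represents the gene, open circles its further measured probe sets (bounds for Slc25a23 and Slc25a39), and the grey band is 1 SD (0.31) of a single probe set around 0. Slc25a24 at 0.76 and Slc25a22, a bound at -0.74, are the outermost of the 34, and all lie inside the dashed 2-fold lines as drawn.

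Uncoupling carriers, which let protons pass the inner membrane without ATP synthesis or resemble proteins that do, showed a lower Slc25a30 and an even Ucp2. Ucp2, widely expressed and high in immune cells, had a signal of 154 in both samples (log2 ratio 0.0056). Of the 14 genes of the macrophage list, 7 were at least 2-fold higher in the same stimulated sample. Cd68 (329 against 155) and Ptprc (131 against 56.3), a gene of leukocytes in general, were among them. Others of the list were near even, such as Cd14 (286 against 270), Cd163 (84.0 against 78.9) and Itgam (44.6 against 40.1). Slc25a30 (kidney mitochondrial carrier 1) had 235 against 340, 1.45-fold lower, and its second probe set pointed the same way, at 87.1 against 113. Ucp1, the heat-producing carrier of brown fat, was below the floor at 3.38 and 3.32. Slc25a14 (UCP5) reached 15.5 and 9.95, and the 3 probe sets of Slc25a27 (UCP4, of brain) at most 11.9, so nothing can be said of a difference in these 3 genes. Ucp3, the muscle uncoupling protein, is outside the rule. Its brighter probe set had 358 against 359, and a second one 233 against 152, a log2 ratio of 0.62, so the probe sets of Ucp3 disagreed.

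Carriers of the malate-aspartate shuttle, which passes the reducing power of cytosolic NADH into mitochondria, were near even in their muscle forms. The oxoglutarate/malate carrier Slc25a11 had 1289 against 1419, 1.10-fold lower, and the aspartate/glutamate carrier Slc25a12 (aralar) 586 against 611, 1.04-fold lower. Both lay within 1 SD of a probe set. Slc25a13 (citrin), the form of liver, had 35.5 against 24.0, 1.48-fold higher, but its second probe set had 20.8 on both arrays, so its probe sets disagreed. Of 6 enzymes of this shuttle and the glycerol phosphate shuttle, 4 lay below 0, and the median log2 ratio was -0.24 with 0 past 2-fold. Cytosolic aspartate aminotransferase (Got1) was 1.39-fold lower (741 against 1027), mitochondrial Got2 was 1.10-fold higher (2174 against 1980), and the glycerol phosphate dehydrogenases Gpd1 and Gpd2 were 1.32-fold and 1.38-fold lower, each with a second probe set that was lower too.

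The citrate carrier had one of the higher ratios. Of all 10 measured carriers of carboxylates and amino acids, those of the shuttle included, 3 lay above 0 and 7 below. Below a mean signal of 100, where Slc25a1 and the measured carriers of the next paragraph lay, 51.9% of all genes were below 0. Slc25a29 and the brighter probe set of Slc25a44 lay within the SD of a dim probe set (0.35). Slc25a1, which exports citrate for lipid synthesis, had 49.0 against 30.5, 1.61-fold higher, and Acly, the enzyme that cleaves exported citrate in the cytosol, had 78.8 against 54.5, 1.45-fold higher. Both signals of Slc25a1 were dim. The pyruvate dehydrogenase kinase gene Pdk3 was 1.51-fold lower (23.5 against 35.6), and the pyruvate dehydrogenase subunit genes Pdha1 and Pdhb were 1.23-fold lower (1421 against 1747) and 1.19-fold lower (1160 against 1377). Citrate synthase (Cs) had 1816 against 2018, and the mitochondrial pyruvate carrier genes Mpc1 and Mpc2 had 3146 against 3506 and 2004 against 1841. Of the 10 genes of pyruvate entry and citrate, 3 lay above 0 and 7 below, with a median of -0.15.

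The glutamate carrier Slc25a22 had the lowest ratio of the family. Its signal was 33.0 in the control sample and 15.1, below the floor, in the stimulated one, at least 1.67-fold lower, and it rests on 1 dim probe set. The other glutamate carrier, Slc25a18, was below the floor at 4.68 and 3.45. Slc25a15, the ornithine carrier of the urea cycle, had 45.0 against 64.3, 1.43-fold lower. It had the most measured probe sets, and all 5 pointed the same way, with log2 ratios from -0.62 to -0.06 and a median of -0.26. They read the same 2 arrays and are not replicates of the limbs. The dicarboxylate carrier Slc25a10, which exchanges malate or succinate for phosphate, had 40.5 against 55.2, 1.36-fold lower, and the basic amino acid carrier Slc25a29 42.5 against 51.3. Slc25a44, which brings in branched-chain amino acids, had 67.1 against 69.4 at its brighter probe set and 38.6 against 57.3 at the other, so the size of its difference is unclear. Slc25a38, the glycine carrier of haem synthesis, was higher with 65.2 against 53.7. Slc25a21, of lysine and tryptophan breakdown, lay below the floor.

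Enzymes that use what these carriers bring in showed no common direction, with 6 of 12 above 0, 6 below and a median of 0.016. The largest ratio was that of Arg1, arginase, which makes ornithine and is also known from macrophages, with 38.7 against 21.3, 1.81-fold higher. Arg2 had 10.6 against 23.9, at least 1.21-fold lower. The branched-chain dehydrogenase subunit gene Bckdha was 1.20-fold lower (124 against 149), and Shmt2, of mitochondrial folate metabolism, 1.19-fold higher (149 against 125).

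The acylcarnitine carrier of fatty acid oxidation was even. Slc25a20, which exchanges acylcarnitine for carnitine, had 188 against 193, 1.03-fold lower. Its partners differed little. Cpt1b, the muscle enzyme that makes acylcarnitine, had 804 against 841, and Cpt2, which releases the fatty acid in the matrix, 200.3 against 207.5. Acsl1, which activates the fatty acid, had 636 against 721. The largest ratio was that of Cpt1a, 1.20-fold higher (42.5 against 35.5), and Crot had 154 against 145. Of 7 such genes, 3 lay above 0 and 4 below, with a median of -0.04 and none beyond 1.5-fold.

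All 9 carriers of cofactors, nucleotides and metals were measured, and none of them reached 1.5-fold. The iron importers Slc25a28 (mitoferrin 2) and Slc25a37 (mitoferrin 1, of erythroid cells) had 198 against 175 and 30.0 against 31.5, and the sign of the second changed with quantile normalization. The transferrin receptor gene Tfrc had 719 against 809, and 7 partner genes of iron and haem had a median log2 ratio of -0.02. The pyrimidine nucleotide carriers went apart, with Slc25a33 at 70.6 against 51.7, 1.37-fold higher, and Slc25a36 at 122 against 135, 1.11-fold lower, its second probe set also lower. Slc25a39, which imports glutathione, was 1.11-fold higher (434 against 390), with a second probe set at 27.6 against 17.6.

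The folate or FAD carrier Slc25a32 had 31.5 against 41.4, 1.31-fold lower, the lowest ratio in this group. The 2 genes linked to coenzyme A transport, Slc25a16 and Slc25a42, had 49.4 against 58.6 and 95.4 against 98.8, both slightly lower. The peroxisomal carrier Slc25a17 (PMP34) had 166 against 155. Apart from Slc25a33 and Slc25a32, the representative probe sets of the group lay within 1 SD of 0.

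The members without a settled substrate here included 1 outer membrane protein. Slc25a46, which acts in mitochondrial dynamics, had 308 against 310, and its second probe set 147 against 146. Slc25a45 had 39.7 against 27.2, 1.46-fold higher, and Slc25a35 23.6 against 30.2, 1.28-fold lower, both dim. Slc25a34 was even at 53.4 and 52.4, and Slc25a51l1, named as like the NAD carrier Slc25a51, had 166 against 196. Slc25a48 and Slc25a53 did not reach the floor. Of the 60 member probe sets 15 lay below it on both arrays, and of the 8 members with over 1 measured probe set, the probe sets of 6 shared a sign, 5 lower and 1 higher.

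Among other proteins of the mitochondrial membranes, 5 of 12 genes lay above 0 and 7 below, with a median of -0.03 and none past 1.5-fold at the brightest probe set. The 12 are genes outside the rule, and the uncoupling protein gene Ucp3 is 1 of them. The outer membrane channel Vdac2 was 1.18-fold lower (2023 against 2390), and the import receptor Tomm20 1.22-fold higher (1253 against 1023). In energy transfer, the ATP synthase inhibitor gene Atp5if1 had 361 against 226, 1.60-fold higher, the largest difference of that list, while cytosolic creatine kinase (Ckm) was 1.36-fold lower (12064 against 16392). A dim second probe set of Atp5if1 had a log2 ratio of 0.16. Regulators of mitochondrial genes had a median of 0.23 over 9 measured genes, 5 above 0 and 4 below. The nuclear receptor Esrrg was 1.42-fold higher (97.0 against 68.2), with a second probe set at 0.56, the coactivator Ppargc1b was 1.53-fold lower (29.5 against 45.1), and Ppargc1a had 72.1 against 80.4. Nrf1 was at least 1.43-fold higher (28.2 against 18.3) and Ppard 1.25-fold higher (123 against 98.0). In the 8 partner lists, no gene measured above the floor on both arrays reached 2-fold. Arg2, with a bound, had deposited signals 2.26-fold apart.

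**Figure D4:**
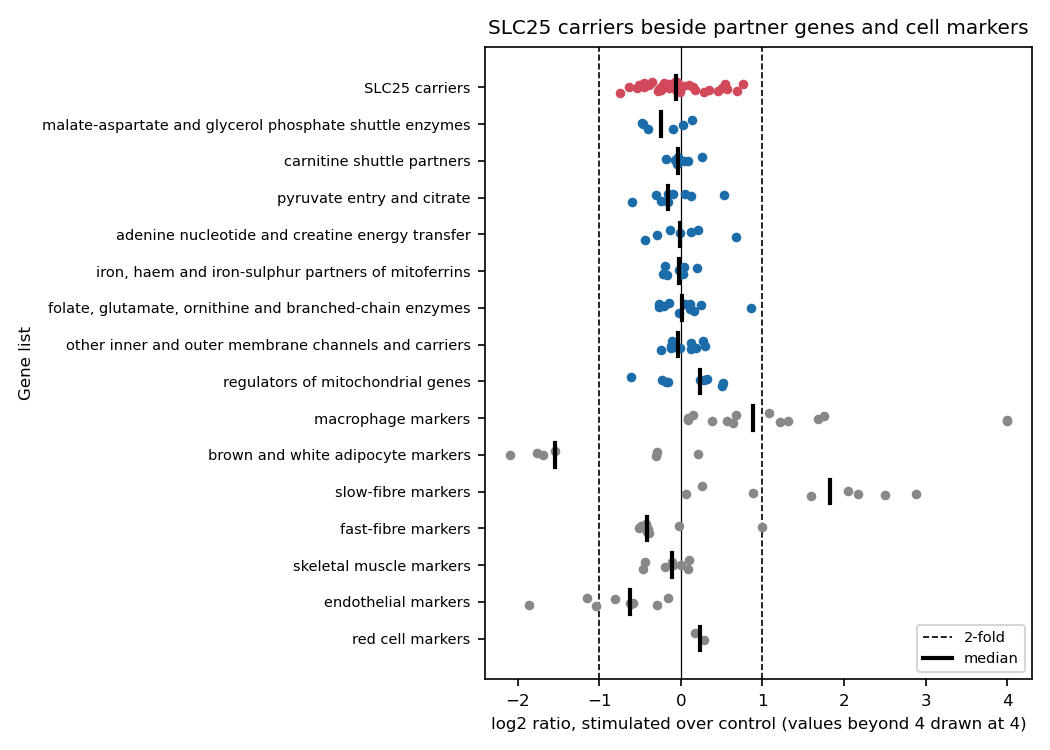
Log2 ratio of stimulated over control (x axis) of each measured gene in the SLC25 family (red), the 8 lists of partner genes (blue) and the 7 lists of tissue and cell markers (grey); 1 point is a gene and black bars are medians. Red and blue points, with bounds drawn at their value, lie inside the dashed 2-fold lines, while macrophage, slow-fibre, adipocyte and endothelial markers reach beyond them. Ucp3, outside the rule, is among the blue points.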

How the data were processed

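The deposited table held 1 linear signal intensity per probe set and array, a MAS5 value that the authors computed, per the submitters' processing notes. Neither its version nor its scaling target is stated there. The 2% trimmed mean signal was 76.5 on both arrays. Of 31042 non-control probe sets, 20826 had 1 gene symbol on the platform annotation and were used, 436 had several and 9780 none listed. Among those with several, 2 name an SLC25 carrier and were left out. All 42 members matched RefSeq (GRCr8) by gene identifier, and 0 symbols changed.

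Signals under the floor of 19.8, the median of all non-control signals, were set to it, and the log2 ratio was taken as stimulated over control. A fold with 1 array below the floor is a bound. The measured probe set of highest mean log2 signal stood for its gene. Genes were counted at 2-fold, with no test, since the groups have 1 array each, which limits all precision. Signals were given for members at 1.5-fold or more, for the 10 brightest, and for those of uncoupling and adenine nucleotide exchange, and up to 4 genes were named per partner list; the other members and partners were named after their values were seen. The members and lists were chosen with earlier results of these data known. The alternatives were other floors, scalings and probe set choices. The counting was tested on simulated data in which all planted differences exceeded 2-fold, in genes above the floor on both arrays. Smaller differences and dimmer genes were not covered. Python 3.11.15, numpy 2.4.6 and pandas 2.3.3 were used.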

Additional observations from a re-analysis of the deposited data

How the results depend on the processing

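Each result was recomputed under 8 alternatives. The count of members at least 2-fold higher stayed at 0 under 6 of them; it was 2 with scaling to the spike-ins (Slc25a1 and Slc25a24) and 1 with no floor and a pseudocount of 1 (Slc25a31, whose signals were 6.50 and 2.28). The count at least 2-fold lower was 1, Slc25a22, when the 25th percentile was the floor and 1, again Slc25a22, with no floor, and 0 otherwise. The median log2 ratio of the members was 0.33 with spike-in scaling, when that of all genes was 0.39, and between -0.07 and -0.02 under the other 7. Of 256 values of single members, 35 moved by more than the SD of a probe set, 33 of them under spike-in scaling. That scaling adds 0.38 to every ratio with both signals above the floor, more than the SD of 0.31, so those 33 moves followed from it. Outside that scaling, 31 of 34 members kept their sign, and Slc25a37, Slc25a46 and Ucp2, all near 0, changed it under 1 alternative each. Several of these alternatives could hardly change a sign. The other floors left most ratios as they were, and the higher floor gave values for only 18 members. The median over probe sets acts only on the 8 members with over 1 measured probe set. Under spike-in scaling 27 members lay above 0 and 7 below. Low signal limits most members: 18 of 34 had a mean below 100. No paired analysis was possible because each group has 1 array.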
